A study of Mus musculus with 4 samples.

Results

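The 10 genes described here encode parts of the dystrophin complex of muscle membranes. They are Dmd, Utrn, Dag1, Sgca, Sgcb, Sgcd, Sgce, Dtna, Sntb1 and Sspn, matched by symbol among the 25804 distinct symbols of the deposited count tables. Each symbol belonged to 1 feature. The genes were listed by name, but the list was drawn up with earlier results of these data known. They were followed in all 4 libraries of the series and, in the 2 cultured libraries, along the levels of Myog and of sarcomere transcripts.

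The series holds droplet-based single-cell RNA sequencing of mouse skeletal muscle cells of the genotype Pax7-nGFP, in which a nuclear GFP marks cells that use the promoter of Pax7, the transcription factor of muscle stem cells (satellite cells). Each of the 4 groups is 1 library, so no group has a replicate, no test of a group difference was possible, and the group cannot be told apart from its library, animals and batch. Freshly isolated satellite cells (fiSC) were GFP+ sorted cells of limb muscles pooled from 3 male mice aged 13 weeks. The library of activated satellite cells (ASC) held GFP+ sorted cells pooled from 17 tibialis anterior muscles of male and female mice aged 18 to 24 weeks, taken 3 days after injury by injected cardiotoxin at 10 µM. Myoblasts were the unsorted passage 2 cells of a culture from 1 male mouse aged 16 weeks, kept in serum-rich medium with 10 ng/ml basic FGF. Myogenic progenitor cells (MPC) had spent 2 passages in that medium and then 5 passages in another serum-containing medium with Forskolin (5 µM), Repsox (5 µM), CHIR9901 (3 µM) and 10 ng/ml basic FGF, from parental cells of a male mouse aged 16 weeks. Forskolin raises cAMP, Repsox inhibits a TGF-beta receptor, and the third compound is named here as in the labels. MPC and myoblast therefore also differed in passage number and in the whole medium.

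Dystrophin, the product of Dmd, is a long rod under the muscle fibre membrane that ties the actin cytoskeleton to dystroglycan, and utrophin, the product of Utrn, is its close relative. Dystroglycan, from Dag1, spans the membrane and binds laminin outside the cell, and the sarcoglycans and sarcospan form a membrane subcomplex beside it. Dystrobrevin (Dtna) and syntrophin (Sntb1) sit on the inner face and recruit signalling proteins. Loss of dystrophin or of a sarcoglycan makes muscle fibres fragile, and satellite cells also hold dystrophin, where it is known to take part in cell polarity. Shorter dystrophins start at internal promoters and share the 3′ end with the full-length form, so these 3′ counts cannot tell the forms apart.

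The promoter sequences are shown because Dmd was the member with the largest differences between libraries, and because the start used cannot be read from 3′ counts. From RefSeq's promoter table, 10 promoters for 7 of the 10 members were used. The table is on build GRCm38.p6 (another build than that of the count tables). Each promoter has 300 bases, from 250 before to 50 after a start. None was used for Sgce, Dtna or Sntb1. Both strands were searched for the E-box CAGCTG, a site type of the myogenic bHLH factors such as Myod1 and Myog, and for the MEF2 and CArG box motifs, which the MEF2 factors and SRF bind. The 2 Dmd promoters and that of Sgca are given 5′ to 3′, at chrX:82948620-82948919 (plus strand), chrX:85048045-85048344 (plus strand) and chr11:94976278-94976577 (minus strand), with the MEF2 and CArG box matches in capitals.
Dmd first promoter: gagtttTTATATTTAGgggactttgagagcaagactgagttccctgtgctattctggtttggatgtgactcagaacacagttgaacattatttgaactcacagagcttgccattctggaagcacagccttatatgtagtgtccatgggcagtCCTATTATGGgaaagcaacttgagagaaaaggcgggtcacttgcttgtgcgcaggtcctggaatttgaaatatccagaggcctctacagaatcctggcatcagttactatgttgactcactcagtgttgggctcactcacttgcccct
Dmd second promoter: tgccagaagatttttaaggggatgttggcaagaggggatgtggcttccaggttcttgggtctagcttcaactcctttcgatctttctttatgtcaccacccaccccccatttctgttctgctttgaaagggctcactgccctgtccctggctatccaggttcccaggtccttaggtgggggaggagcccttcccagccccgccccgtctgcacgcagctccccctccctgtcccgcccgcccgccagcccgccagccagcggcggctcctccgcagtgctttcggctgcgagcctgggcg
Sgca promoter: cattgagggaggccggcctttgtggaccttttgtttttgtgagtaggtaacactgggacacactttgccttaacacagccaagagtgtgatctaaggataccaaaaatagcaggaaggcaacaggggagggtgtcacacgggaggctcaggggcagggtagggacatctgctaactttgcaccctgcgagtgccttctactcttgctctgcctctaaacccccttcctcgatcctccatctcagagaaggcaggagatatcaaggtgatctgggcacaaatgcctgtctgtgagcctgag
The first Dmd promoter held a MEF2 match at bases 7 to 16 and a CArG box match at bases 153 to 162, counted from its 5′ end, and no CAGCTG. The other 9 member promoters, the second Dmd promoter and that of Sgca among them, held none of the 3 motifs in this window. Of all 32851 promoters in the table, 16.3% held CAGCTG, 3.19% a MEF2 match and 1.63% a CArG box match. A match is a run of letters and was not tied to binding in these data.

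After filtering, 2192 fiSC, 6446 ASC, 2365 myoblast and 9096 MPC cells were kept, with 20031950 to 179085373 UMIs (counted molecules) per library and a median of 8769, 19810.5, 22911 and 13236 UMIs per cell in that order. Between any 2 libraries 2 to 18 cell barcodes were shared. A level here is a CPM value, obtained by adding a gene's UMIs over the named cells and scaling to 1000000 UMIs, and the intervals given are exact 95% Poisson intervals that cover counting error only. Clusters named myogenic progenitor-like from their markers made up 97.1% of fiSC cells, 74.0% in myoblast, 55.4% in MPC and 31.9% in ASC, and all 12 progenitor markers reached 20 CPM in fiSC. Although ASC came from a GFP sort, 46.8% of its cells were macrophage-like, all 14 macrophage markers reached 20 CPM there, and their summed level was 10534 CPM against 34.6 in fiSC, 12.7 in myoblast and 11.9 in MPC. Another 20.5% of the ASC cells stayed unnamed. The summed fibroblast markers stood at 1140, 118, 234 and 611 CPM in fiSC, ASC, myoblast and MPC.

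Dmd was highest in fiSC and lowest in ASC, with the cultures between. Its level in fiSC was 2343 CPM, with an interval of 2322 to 2364. Myoblast had 243 CPM (239 to 247), MPC 105 (103 to 107) and ASC 23.3 (22.6 to 24.0). Utrn had the same order of libraries within a narrower range, at 466 CPM in fiSC, then 314 in myoblast, 245 in MPC and 109 in ASC. Neither gene had 2 libraries with overlapping intervals, but these cover counting error only and not the spread between animals or cultures. After each cell was thinned to 2000 UMIs, 91.2% of the fiSC cells still held a Dmd UMI (89.9 to 92.4% by the exact binomial interval), against 22.3% in myoblast, 9.69% in MPC and 4.29% in ASC. Unthinned, those shares were 97.8, 76.6, 37.3 and 31.3% in the same order. For Utrn the thinned shares were 52.0, 42.1, 34.0 and 16.5%.

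Dag1, the dystroglycan gene, split the 2 cultures. It stood at 426 CPM in fiSC and 321 in MPC, against 102 in ASC (interval 101 to 104) and 98.8 in myoblast (96.2 to 101). The ASC and myoblast intervals overlapped, so these neighbours were not distinguishable at this depth. A Dag1 UMI was found in 44.3% of thinned fiSC cells and 44.5% of MPC cells, against 12.8% in ASC and 16.3% in myoblast.

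The sarcoglycans, which form the membrane subcomplex, did not share one order of libraries. Sgca (alpha-sarcoglycan, the most muscle-restricted of the 4) was highest in myoblast, at 40.3 CPM (interval 38.6 to 42.0), against 20.0 in fiSC, 8.72 in MPC and 1.25 in ASC (1.09 to 1.42). Sgcb stayed within 23.6 to 34.5 CPM in all 4 libraries, and its fiSC (33.0) and myoblast (34.5) intervals overlapped. Sgcd was at 15.4 CPM in myoblast and under 10 CPM elsewhere, at 4.91 in MPC, 3.79 in fiSC and 0.966 in ASC, with overlapping intervals for MPC and fiSC. Sgce (epsilon-sarcoglycan, the relative of alpha-sarcoglycan that many non-muscle tissues also make) was highest in MPC, at 57.5 CPM, against 26.3 in myoblast, 21.7 in fiSC and 5.91 in ASC. Sgca and Sgce thus had opposite orders in the cultures.

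Over all cells of a library, the inner-face members Dtna and Sntb1 were higher in culture than in either sorted library. Dtna reached 88.2 CPM in myoblast and 62.4 in MPC, against 15.9 in ASC and 9.14 in fiSC. Sntb1 reached 162 CPM in MPC and 121 in myoblast, against 20.2 in ASC and 10.7 in fiSC. In progenitor-like cells alone this did not hold for MPC against ASC, where Sntb1 was at 17.2 against 23.9 CPM and Dtna at 21.2 against 20.0, the latter with overlapping intervals. Sspn (sarcospan) was highest in MPC, at 42.1 CPM, then 30.5 in myoblast, 16.3 in fiSC and 6.21 in ASC. For Sntb1 the thinned share of cells with a UMI was 14.5% in myoblast and 14.3% in MPC, with overlapping intervals, against 2.81% in ASC and 1.07% in fiSC.

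**Figure D1:**
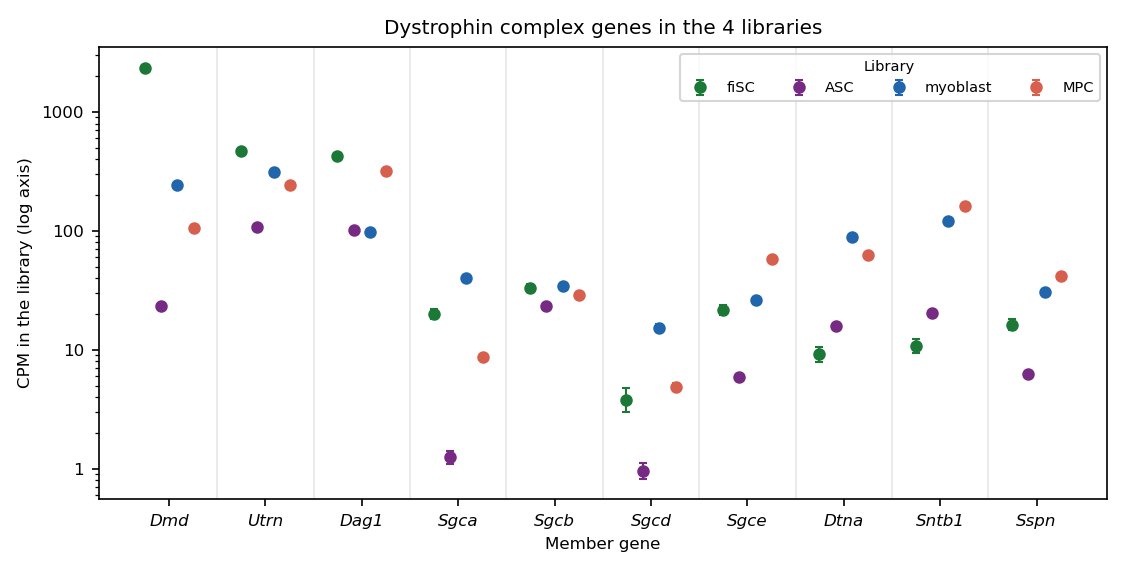
Levels of the 10 genes (CPM, log axis) in the fiSC, ASC, myoblast and MPC libraries, 1 point per library with its exact 95% Poisson interval (counting error only). Dmd falls from 2343 CPM in fiSC to 23.3 in ASC, while Dtna and Sntb1 are lowest in fiSC and Sgcb stays between 23.6 and 34.5 CPM.

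The comparison of ASC with fiSC concerns satellite cells after injury against those of uninjured muscle. A gene is called here when the ratio of CPM plus 5 is at least 2-fold and the higher side reaches 10 CPM. By that rule 5 of the 9 members with 10 CPM were lower in ASC and 0 higher (Sgcd was under 10 CPM), where 21.1% of the 9324 genes tested were lower and 24.6% higher. Dmd was lower by a log2 ratio of -6.37 (100.5-fold by CPM), Utrn by -2.05, Dag1 by -2.01, Sgca by -2.00 and Sgce by -1.29. The ratios of Sspn (-0.93), Sgcb (-0.41), Dtna (0.56) and Sntb1 (0.68) stayed within 2-fold. The median log2 ratio was -1.11 over the 10 members and 0.08 over all genes tested. Dmd ranked 8th from the lowest of those 9324 genes.

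Progenitor-like cells compared by themselves, without the macrophage-like cells of ASC, gave 31.7 CPM (interval 30.6 to 32.9) in ASC against 2448 (2426 to 2470) in fiSC, a log2 ratio of -6.06 for Dmd. In these cells 4 of 9 tested members were lower and 0 higher, against 24.2 and 24.1% of all genes tested. Utrn was at 122 against 465 CPM, Dag1 at 126 against 419 and Sgca at 1.48 against 20.6, while Sgce (7.69 against 20.4 CPM) lay just inside 2-fold. Dtna (20.0 against 7.69 CPM, log2 0.98) and Sntb1 (23.9 against 9.79 CPM, log2 0.96) were just short of the rule in the other direction. In the macrophage-like cells, which should hold little of a muscle-restricted gene, Dmd was at 9.65 CPM and Sgca at 0.141. Dag1 was at 23.6 CPM there, Utrn at 61.8 and Sgcb at 18.4, beside 126, 122 and 25.0 in the progenitor-like cells of ASC. A thinned cell had a Dmd UMI in 2.07% of the macrophage-like and 7.14% of the progenitor-like cells of ASC, whose median depths were 15941 and 46955 UMIs. For Dtna these shares were 0.17 and 3.47%, and for Sntb1 0.53 and 4.94%.

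A progenitor-like ASC cell held a median of 46882 UMIs and a fiSC one 8740, so counts per cell differ from CPM. Of the members with lower CPM in progenitor-like ASC cells, Dmd and Sgca were also lower per cell. The mean count of Dmd was 21.8 UMIs per progenitor-like cell in fiSC and 1.46 in ASC. Sgca went from 0.184 to 0.0681 UMIs per cell. The other 8 members had more UMIs per progenitor-like cell in ASC than in fiSC, as for Utrn (5.62 against 4.15), Dag1 (5.78 against 3.73), Sgcb (1.15 against 0.298) and Sntb1 (1.10 against 0.0874). In progenitor-like cells the lower CPM of Utrn, Dag1 and Sgce in ASC is thus a lower share of a larger UMI total per cell. That total also depends on the sequencing depth of each library, and it was not tied to the RNA content of a cell. Over all retained cells, macrophage-like ones included, these 3 genes had fewer UMIs per cell in ASC. Utrn was at 3.02 against 4.26, Dag1 at 2.84 against 3.89 and Sgce at 0.164 against 0.198.

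Dmd is a very long gene, spanning 2257 kb in the GENCODE vM21 annotation of GRCm38, and long genes were lower in ASC as a class. The median log2 ratio of ASC over fiSC was 0.62 for genes spanning under 20 kb, -0.10 for 20 to under 100 kb, -0.62 for 100 to under 500 kb and -1.40 for the 121 genes of 500 kb or more, of which 62.0% were lower. Dmd had the lowest ratio of those 121 genes. Utrn (487 kb) lay below its class, while Dtna (245 kb) and Sntb1 (271 kb) lay above theirs. The short Sgca (13.5 kb) was lower in ASC as well. Whether reads within introns were counted is not given in the sources used here, and the part of gene span in these ratios was not tested.

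**Figure D2:**
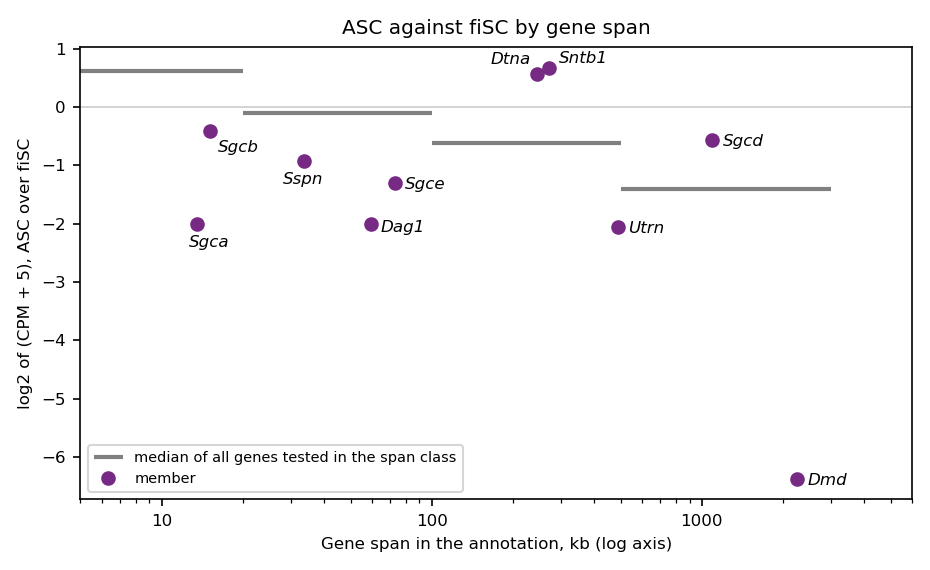
The log2 ratio of CPM plus 5, ASC over fiSC, of each member (points) against its span in the annotation (kb, log axis), with grey bars at the median of all genes tested in each span class. Dmd, at -6.37, lies below the median of -1.40 of genes of 500 kb or more, and Dtna and Sntb1 lie above that of their class.

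Against fiSC, both cultures had less Dmd and more of the inner-face members Dtna and Sntb1. Their relatives outside the 10 members did not follow. Sntb2, a syntrophin gene, was at 56.5 CPM in MPC and 38.0 in myoblast against 543 in fiSC. Dtnb, a dystrobrevin gene, was at 52.5 and 56.0 against 95.6 CPM, within 2-fold. In MPC 4 of 9 tested members were higher (Sntb1 3.40, Dtna 2.25, Sgce 1.23 and Sspn 1.14 by log2 ratio) and 1 was lower (Dmd, -4.42), where 27.9% of genes tested were higher and 15.8% lower. In myoblast 3 of 10 were higher (Sntb1 3.00, Dtna 2.72 and Sgcd 1.21) and 2 lower (Dmd -3.24 and Dag1 -2.05), against 27.7 and 17.8% of genes tested. These 2 comparisons and that of ASC share the fiSC library. In progenitor-like cells alone Dmd was at 93.7 CPM in myoblast and 28.9 in MPC. The Sntb1 ratio of MPC over fiSC was 0.59 and that of Dtna 1.05 in those cells (17.2 against 9.79 CPM for Sntb1), below the 3.40 and 2.25 of the whole libraries.

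MPC against myoblast concerns the change of culture medium. Of the 10 members 2 were higher in MPC (Dag1 at 1.65 and Sgce at 1.00 by log2 ratio) and 3 lower (Sgca -1.72, Dmd -1.17 and Sgcd -1.04), where 6.85% of the 9466 genes tested were higher and 6.44% lower. The median log2 ratio was -0.28 over the members and 0.06 over all genes tested. Sgce stood at the threshold, and 4 of the processing alternatives took it below. In progenitor-like cells Dag1 was at 306 against 68.8 CPM (log2 2.08), Sgce at 68.7 against 29.1 (1.11), Sgca at 5.42 against 32.7 (-1.86) and Dmd at 28.9 against 93.7 (-1.54). There Sntb1 (17.2 against 54.4 CPM, log2 -1.42) and Dtna (21.2 against 54.9, log2 -1.19) were lower in MPC as well, although over the whole libraries both lay within 2-fold. The Sgcd difference was absent from progenitor-like cells, at 2.99 against 2.71 CPM.

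Within each culture, cells were binned by the share of their UMIs in 21 sarcomere genes, the contractile genes of differentiating muscle. The bins are under 0.1%, 0.1 to under 1%, 1 to under 5%, and 5% or more. They held 998, 1006, 81 and 203 myoblast cells and 4048, 3873, 610 and 359 MPC cells. Within 20% of the 0.1% edge lay 2165 MPC and 371 myoblast cells, so the bins on either side of it were not sharply separated. Within 20% of the 5% edge lay 267 MPC and 34 myoblast cells. Pax7 went from 1296 CPM in the lowest to 40.2 in the highest bin of myoblast and from 876 to 53.7 in MPC, and Mki67, a proliferation marker, from 166 to 2.21 and from 375 to 13.1 CPM. Myog was highest in the third bin of both cultures, at 1782 CPM in myoblast and 1384 in MPC.

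From the lowest to the highest bin 8 of the 10 members were higher and 1 lower in myoblast, where 10.6% of genes tested were higher and 25.9% lower. In MPC 6 were higher and 1 lower, against 9.65 and 26.2%. The median log2 ratio was 2.07 over the members in myoblast and 1.20 in MPC, and -0.40 over all genes tested in each. The ratio of the TMM factors of these bins was 0.41 on the log2 scale, which moved ratios up by less than that in genes of low level, where the 5 CPM added weigh more.

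Dmd was flat over the 2 lower bins and then much higher. In myoblast it was at 93.6, 89.6, 710 and 1407 CPM from the lowest to the highest bin (the last with an interval of 1375 to 1439), and in MPC at 33.9, 37.1, 423 and 807 CPM (785 to 829). The log2 ratio of the highest over the lowest bin was 3.84 in myoblast and 4.38 in MPC. MPC lay below myoblast in each of the 4 bins. Even the highest bins stayed below the 2343 CPM of fiSC. Utrn in contrast stayed between 280 and 347 CPM over the myoblast bins and between 211 and 370 over those of MPC, within 2-fold from the lowest to the highest bin in both cultures.

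Dag1 depended on the culture. Along the bins it was at 57.8, 85.7, 201 and 304 CPM in myoblast, 5.26-fold higher at the end, and at 292, 384, 240 and 252 CPM in MPC, where the ends differed by a log2 ratio of only -0.21. That sign was not stable, at 0.19 with TMM factors, 0.01 with a mitochondrial limit of 20% and 0.11 with other bin edges. Dag1 was thus higher in MPC than in myoblast over the 3 lower bins, and in the highest bin MPC had less than myoblast.

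Of the sarcoglycans, Sgca, Sgcb and Sgcd were higher and Sgce lower in the highest bin of both cultures. Sgca was at 26.1, 37.5, 70.2 and 106 CPM in myoblast and at 5.62, 6.52, 19.1 and 38.5 in MPC, so it was lower in MPC in each bin. Sgcb was at 26.9 in the lowest and 62.1 in the highest bin of myoblast, and at 23.9 and 53.0 in MPC. Its MPC ratio (log2 1.01) lay at the threshold. Sgcd was at 12.8, 2.24, 13.4 and 83.6 CPM in myoblast and at 4.49, 2.98, 7.09 and 20.0 in MPC. Fibroblast markers moved with its higher value in the lowest bin. An unnamed myoblast cluster of 33 cells led by collagen genes had 132 CPM of Sgcd, and the summed fibroblast markers of myoblast were at 275 CPM in the lowest and 20.5 in the highest bin. Without that cluster the log2 ratio of Sgcd in myoblast was 3.46 in place of 2.31. Sgce went the other way, from 28.0 to 9.95 CPM in myoblast (log2 -1.14) and from 64.3 to 27.2 in MPC (-1.10). With TMM factors Sgce kept its sign at -0.84 and -0.74 but lay within 2-fold.

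Sntb1 peaked in the third bin, as Myog did. It was at 27.7, 95.3, 759 and 426 CPM in myoblast and at 14.98, 145, 873 and 528 CPM in MPC. Dtna was at 47.0, 60.3, 196 and 355 CPM in myoblast and at 20.9, 32.6, 303 and 298 in MPC, where the intervals of the last 2 bins overlapped. Sspn went from 21.8 to 54.2 CPM in myoblast (log2 1.14) and from 38.4 to 81.3 in MPC (0.99, just inside 2-fold).

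**Figure D3:**
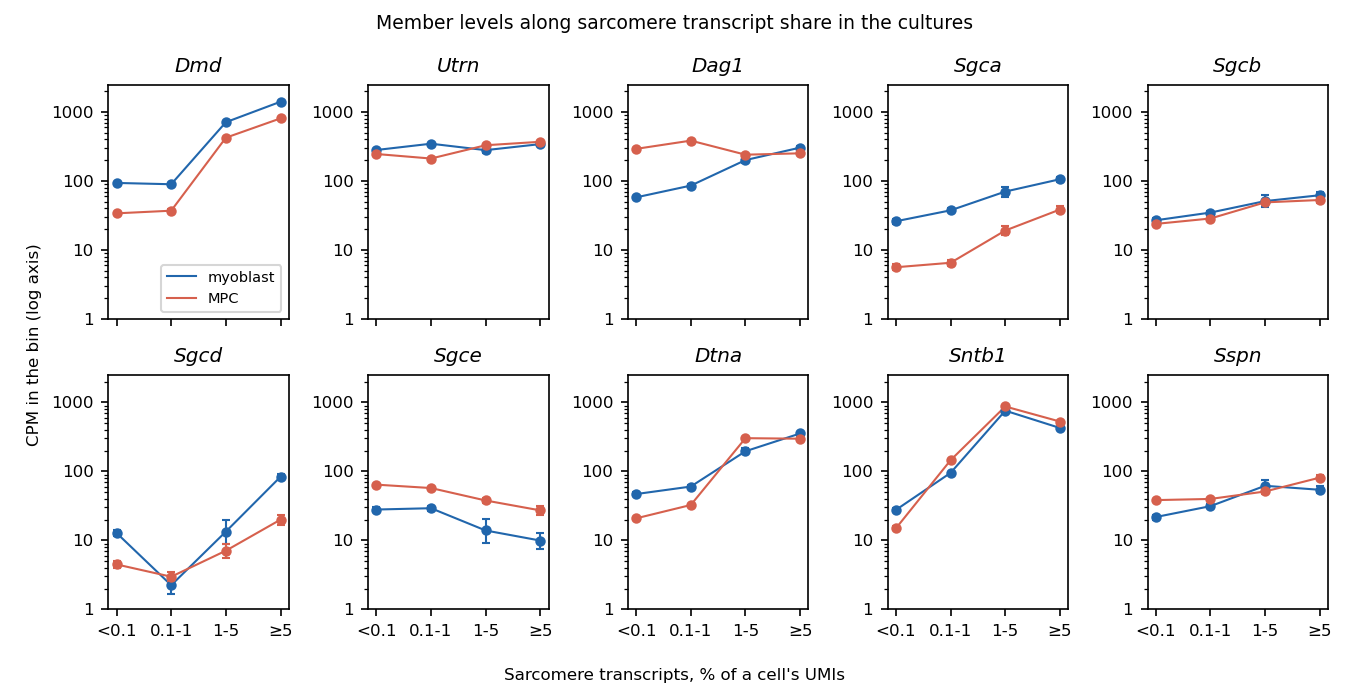
Levels of each gene (CPM, log axis) in 4 bins of cells by the share of their UMIs in sarcomere genes, in the myoblast and MPC cultures, with exact 95% Poisson intervals. Dmd is flat over the 2 lower bins and reaches 1407 and 807 CPM in the highest, Sntb1 peaks in the third bin, Utrn stays within 2-fold and Sgce is lower in the highest bin.

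Myog, the transcription factor of terminal differentiation, was used as a second scale. Cells were thinned to 2000 UMIs and classed by 0, 1 or at least 2 Myog UMIs. Between the last and the first class 6 members were higher and 0 lower in myoblast, where 8.38% of genes tested were higher and 17.5% lower. In MPC 3 of 9 tested members were higher (Sntb1, Dtna and Dmd) and 0 lower, against 5.75 and 12.3%. Sntb1 had the largest ratio in MPC (583 against 39.4 CPM, log2 3.73) and Dmd in myoblast (1255 against 113 CPM, log2 3.42).

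Splitting each Myog class at 1% sarcomere UMIs separated Dmd from Sntb1. In cells under 1%, Dmd was at 91.8, 89.1 and 90.1 CPM with 0, 1 and at least 2 Myog UMIs in myoblast, and at 35.2, 38.2 and 33.6 in MPC. It thus did not vary with Myog beyond its intervals there. In cells at or above 1% it was at 860, 922 and 1404 CPM in myoblast and at 513, 668 and 549 in MPC. These levels were 9.37- to 17.5-fold those of the cells under 1% of the same Myog class. The classes did not hold the Myog level constant. In the class with 0 Myog UMIs after thinning, Myog was at 12.7 CPM under 1% and 590 at or above 1% in myoblast. In MPC it was at 52.9 and 555 CPM. Sntb1 already differed in the cells under 1%, at 49.7, 151 and 626 CPM in myoblast and at 23.1, 151 and 372 in MPC. Its level with at least 2 Myog UMIs was 12.6-fold and 16.1-fold that with 0. The third myoblast class under 1% held only 28 cells, and the corresponding MPC class 850.

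Dtna lay between the 2 patterns. Under 1% sarcomere UMIs it was at 52.5, 67.7 and 85.2 CPM along Myog in myoblast and at 21.1, 32.0 and 57.6 in MPC, and at or above 1% it was at 291 to 323 CPM in all 6 classes of both cultures. Utrn under 1% was at 314, 284 and 285 CPM in myoblast and at 245, 196 and 154 in MPC. At or above 1% Utrn was at 308, 318 and 333 CPM in myoblast and at 322, 380 and 339 in MPC. With at least 2 Myog UMIs its level at or above 1% was thus 2.20-fold that under 1% in MPC, and 1.17-fold in myoblast. Dag1 under 1% was at 68.4, 112 and 188 CPM along Myog in myoblast and at 312, 419 and 411 in MPC. Sgca and Sgcd in MPC showed no such increase under 1%, at 5.97, 6.27 and 6.18 CPM and at 3.996, 3.18 and 3.01 CPM. At or above 1% both were highest in the class with 0 Myog UMIs (35.7 and 25.1 CPM). That 0 holds only after thinning, as Myog was at 555 CPM in the unthinned counts of those cells.

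**Figure D4:**
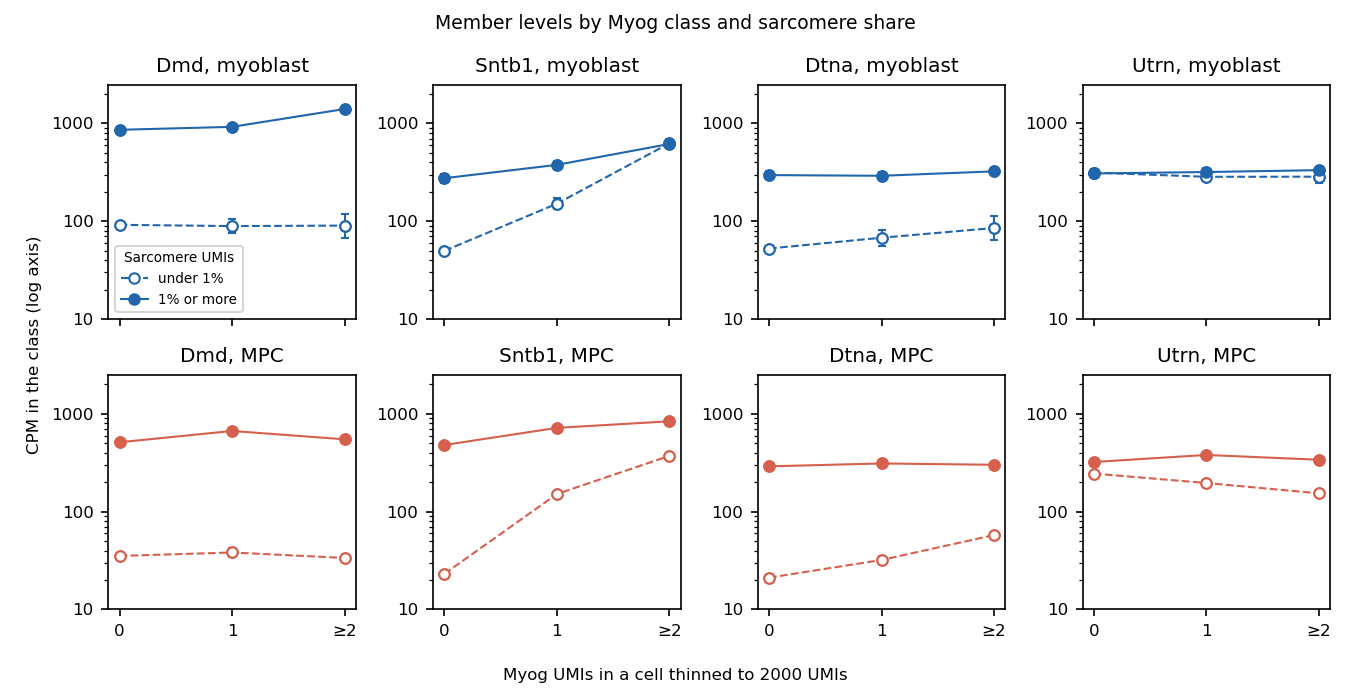
Levels of Dmd, Sntb1, Dtna and Utrn (CPM, log axis) by the Myog UMIs of a cell thinned to 2000 UMIs, for cells under 1% sarcomere UMIs (open points, dashed) and at or above 1% (filled points), with exact 95% Poisson intervals. Under 1% Dmd is flat along Myog at 89.1 to 91.8 CPM in myoblast and 33.6 to 38.2 in MPC, whereas Sntb1 climbs to 626 and 372 CPM.

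Clusters, built without the 10 genes, showed where in each library the members were high. In fiSC, Dmd was at 2136 to 2858 CPM in the 4 progenitor-like clusters and at 416 CPM in the 63 fibroblast-like cells. Those 63 cells also had Pax7 at 800 CPM, beside 835 in the progenitor-like cells, so their levels cannot be read as those of fibroblasts alone. Dag1 and Sspn varied more among the same 4 clusters, from 228 to 978 and from 7.21 to 54.3 CPM, and both were highest in cluster 1 (258 cells), which also had the highest Pax7 of the library, 2006 CPM. In ASC, Dmd was at 8.64 to 26.9 CPM in 3 of the progenitor-like clusters and at 248 CPM in cluster 9 (247 cells). Cluster 9 also had the highest Dag1 (365 CPM), Sspn (41.6), Sgca (6.12) and Pax7 (380) of the ASC clusters. That Dmd level was still below the 2136 CPM of the lowest progenitor-like cluster of fiSC.

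Among the muscle differentiation-like clusters of the cultures, MPC clusters 6 and 7 differed in Dmd. MPC clusters 9, 10 and 11 of this class (241, 114 and 105 cells) are not described here. MPC cluster 6 (1472 cells) had 1049 CPM of Myog and 377 of Sntb1, but Dmd at 30.3 CPM, the level of the MPC progenitor-like clusters (22.4 to 30.7 CPM). MPC cluster 7 (740 cells) had a similar Myog level, 1160 CPM, with Dmd at 638, Sntb1 at 676 and Sgca at 29.7 CPM. Both myoblast clusters of this class had high Dmd, 806 and 1296 CPM. Sspn was at 70.2 CPM and Dmd at 79.7 in MPC cluster 8 (974 cells), which had 1255 CPM of Pax7 and stayed unnamed. Sgcd was high in fibroblast-like cells of fiSC (36.6 CPM), ASC (98.4 CPM, 12 cells) and MPC (16.6 CPM), besides the differentiating cells.

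**Figure D5:**
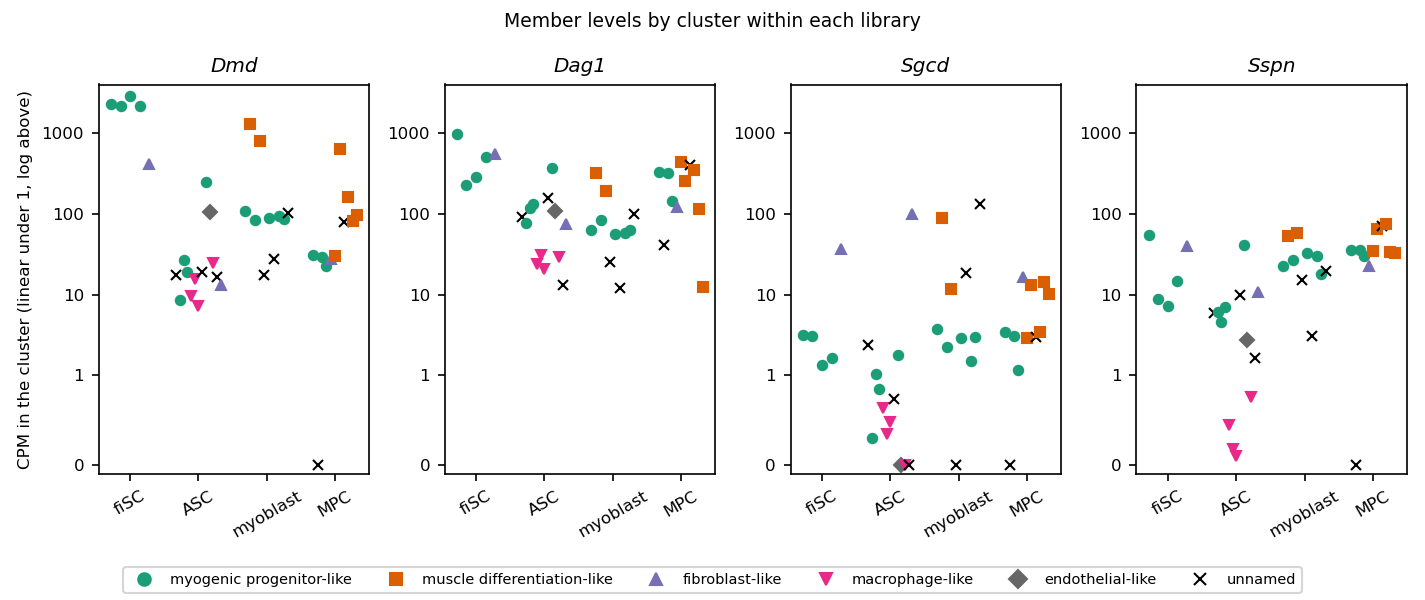
Levels of Dmd, Dag1, Sgcd and Sspn (CPM, linear under 1 and log above) in each cluster of the 4 libraries, with symbols for the named classes. Dmd is above 2000 CPM in the fiSC progenitor-like clusters and at 248 in ASC cluster 9, and Sgcd is high in fibroblast-like as well as muscle differentiation-like clusters.

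Other subunits of the complex followed more than 1 pattern. Of 10 further subunit genes 7 were tested between the highest and lowest sarcomere bins, and 3 were higher and 2 lower in both cultures, where 10.6% of all genes tested were higher and 25.9% lower in myoblast and 9.65 and 26.2% in MPC. The higher ones included Cav3 (caveolin of muscle, 5.43 to 749 CPM in myoblast and 3.43 to 486 in MPC). The lower ones were Sntb2, a syntrophin relative of Sntb1 (44.1 to 10.5 and 74.2 to 9.63 CPM), and Dtnb, the dystrobrevin relative of Dtna (68.9 to 12.7 and 59.8 to 17.9). Sntb1 and Sntb2, and likewise Dtna and Dtnb, thus went opposite ways in both cultures. In ASC against fiSC 3 of 5 were lower and 0 higher, against 21.1 and 24.6% of all genes tested, with Sntb2 at 51.4 against 543 CPM, Drp2 (dystrophin-related protein) at 19.3 against 79.3 and Dtnb at 36.7 against 95.6. None of 7 was called between MPC and myoblast, where 6.85% of all genes tested were higher and 6.44% lower.

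Of the enzymes that glycosylate dystroglycan, 0 of 12 tested were called between MPC and myoblast, beside 6.85% of all genes higher and 6.44% lower. Between the sarcomere bins 0 were higher and 3 of 13 lower in myoblast and 2 of 11 in MPC, near the 25.9 and 26.2% of all genes tested that were lower. Their median log2 ratio was -0.29 in myoblast and -0.25 in MPC, beside -0.40 over all genes tested. In ASC against fiSC 1 of 10 was higher and 2 were lower, against 24.6 and 21.1% of all genes tested. Dpm3, a subunit of the enzyme that makes the mannose donor, was the higher one there, at 100 against 47.1 CPM. In the highest against the lowest sarcomere bin Dpm3 was lower in both cultures, at 43.1 against 103 CPM in myoblast and at 41.1 against 138 in MPC. Of the matrix ligands 7 of 9 were lower in the highest sarcomere bin of MPC and 3 of 8 in that of myoblast, beside the same 26.2 and 25.9% of all genes tested. Lama2, the laminin chain of muscle basement membrane, was at 118 against 502 CPM in MPC and at 149 against 351 in myoblast. In ASC 5 of 7 matrix ligands were lower than in fiSC, Lama2 at 61.3 against 525.5 CPM, and 0 were higher, where 21.1% of all genes tested were lower. Of 12 costamere and linked membrane genes 4 were higher and 3 lower between the bins of myoblast and 4 and 4 in MPC. Among all genes tested 10.6% were higher and 25.9% lower in myoblast, and 9.65 and 26.2% in MPC. The lower ones in myoblast were thus about as frequent as among all genes tested. The higher ones included Dysf (dysferlin, 18.2 to 149 CPM in myoblast), Flnc (filamin C, 69.2 to 524) and the intermediate filament gene Des (485 to 3018). Tln2 (181 to 41.6 CPM) and Actb (5788 to 231) were lower. In ASC 6 of 11 were lower than in fiSC and 0 higher, against 21.1 and 24.6% of all genes tested. Flnc was at 54.2 against 1058 CPM and Tln2 at 39.0 against 348.

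As a description, 5088 genes that reached 50 CPM in a bin were compared over the 8 bins of both cultures. The highest r with Dmd was that of Rap1gap2 (r = 0.996), then Utp11 (0.994) and Tbcd (0.991). Rap1gap2 was at 12.6 CPM in the lowest and 147 in the highest myoblast bin and at 2.01 and 77.2 in MPC. The value of r does not measure the size of a change. Utp11 was only at 189 and 264 CPM in those myoblast bins and at 167 and 234 in MPC. For Utrn the genes with the highest r were Zfp697 (0.929), Ilk (0.915) and Tlcd2 (0.914), and for Sgca Calcoco1 (0.993), Klhl24 (0.985) and Mrps21 (0.984). Among the members, r with Dmd over these bins was 0.97 for Sgcb and Dtna, 0.84 for Sgca, 0.82 for Sntb1, 0.79 for Sgcd, 0.72 for Sspn, 0.70 for Utrn, 0.18 for Dag1 and -0.83 for Sgce. The bins of a culture share a library, and Pearson's r was taken on log2 of CPM plus 5.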

How the data were processed

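The deposited tables give unnormalized counts of UMIs for each gene in each barcode. The authors aligned reads with STAR 2.7.10b to GRCm39, per the submitters' processing notes. UMI collapsing, cell calling, the gene annotation and the use of intronic reads are not given in the sources used here. The 10 genes and all gene lists were chosen with earlier results of these data known. Cells with at least 1000 UMIs, 500 genes and at most 10% mitochondrial UMIs were kept. Scrublet (scanpy 1.11.5) marked doublets. Its automatic threshold served ASC, and where it marked under 0.5% of cells the top scores at 0.8% per 1000 cells were removed (59, 297, 47 and 799 cells in fiSC, ASC, myoblast and MPC).

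Each library was clustered by itself (2000 variable genes without the members and the genes of their 4 lists and the sarcomere list, 30 components, 15 neighbours, Leiden resolution 0.5, igraph 0.11.9). Names came from 14 marker lists. Those for macrophage, fibroblast, endothelial cells, myogenic progenitors, and differentiating and mature muscle (joined as muscle differentiation) named clusters, and the remaining lists named none. A cluster was named only with 3 or more markers, and a majority of the list, at 20 CPM. Naming details and the doublet rule were set after seeing the data. Bins used cells with at least 2000 UMIs. The size rule was checked on simulated counts. All members are named. Other genes come from 4 lists (complex subunits, dystroglycan glycosylation, matrix ligands, costamere), at most 6 per list by ratio among those past the rule in MPC against myoblast, ASC against fiSC or the highest against the lowest bin. The 3 genes with the highest r over the bins are given for Dmd, Utrn and Sgca. TMM factors came from edgeR 4.0.16. Values of some genes of these lists are not reported here.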

Additional observations from a re-analysis of the deposited data

How the results depend on the processing

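Of 110 member counts under the alternatives (stricter cells, 20% mitochondrial UMIs, doublets kept, TMM, pseudocount 1, no minimum level, progenitor-like cells, no sarcomere UMIs, other bin edges, and 3 chosen after seeing the data), 98 stayed within 1.5 times of the reported count. Members higher in MPC than in myoblast were 1 in place of 2 with the strict filter, the 20% limit, TMM factors and without sarcomere UMIs, where Sgce lay just inside 2-fold. The Sgcd ratio of MPC over myoblast turned from -1.04 to 0.0517 in progenitor-like cells. Members higher in ASC than in fiSC were 1 (Sntb1) in place of 0 in the myogenic clusters with unnamed cluster 8. In MPC against fiSC, higher members were 2 in place of 4 in progenitor-like cells, and lower members 2 in place of 1 there, with TMM factors and with pseudocount 1. Between sarcomere bins, Sgce was the lower member, and the count was 0 with TMM factors in both cultures and in MPC with edges of 0.05, 0.5 and 3%. The log2 ratio of the TMM factors was 0.26 in ASC against fiSC, -0.12 in MPC against fiSC and 0.41 in the bins, with smaller moves in genes of low level. Of the member ratios under these alternatives, 347 moved by less than their counting error and 142 by more. Sgcd was the only ratio past the rule that changed sign. Within 2-fold, Sntb1 of MPC over myoblast went from 0.40 to -1.42 in progenitor-like cells, Dag1 in the MPC bins changed sign as given above, and Sgcb (myoblast over fiSC, 0.06 to -0.06 in progenitor-like cells) and Utrn (MPC by Myog, -0.06 to 0.01 with Myog per 10000 UMIs) changed sign near 0. Of shares of cells 79 moved beyond their interval without thinning or at 5000 UMIs, and of class levels 15 did at clustering resolution 1.0, against 1 and 55 that did not. No paired analysis was possible because each group is 1 library. Counting error is small at these depths, but the spread between animals or cultures was not measured. Bins left out 117 MPC and 16 myoblast cells with at least 5% sarcomere UMIs but under 2000 UMIs.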
